A study of Mus musculus with 6 samples.

Results

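The genes described here are the 3 TGF-beta ligands Tgfb1, Tgfb2 and Tgfb3 and the receptors Tgfbr1, Tgfbr2 and Tgfbr3 of the mouse, chosen by their symbols. All 6 were found once each among the 38918 genes of the deposited table, and all 6 passed the minimum mean level of 1 FPKM that left 12988 genes for testing. FPKM is a fragment count divided by the length of the transcript and by the size of the library, so levels of different genes can be set side by side.

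RNA was sequenced from whole embryonic mouse hearts at embryonic day 11.5, on a background labelled C57/BL6. The conditional knockout embryos had the genotype Nfatc1Cre:Tie2 flox/flox, in which Cre expressed from Nfatc1, an endocardial transcription factor gene, removes Tie2, the angiopoietin receptor encoded by Tek. Littermate controls were Tie2 flox/wild-type, with no Cre named in their labels, so the effects of Cre and of Tie2 loss cannot be told apart. Each group had 3 libraries, from RNA of 18 hearts per genotype that the series text describes as pooled and then divided, so p-values speak only for the spread among these libraries. Transcripts of some marker lists differed widely between libraries of 1 genotype: liver markers summed to 5.75, 248 and 2.69 FPKM in conditional knockout replicates 1 to 3, and Y-linked genes to 29.6, 31.2 and 65.0 FPKM in control replicates 1 to 3. How many hearts stand behind each library, and so what n = 3 samples, is unclear.

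TGF-beta ligands are secreted in a latent form, in which the propeptide stays wrapped around the ligand dimer and is anchored to the matrix by latent TGF-beta binding proteins. Active ligand binds the type II receptor Tgfbr2, which phosphorylates the type I receptor Tgfbr1, and this in turn phosphorylates Smad2 and Smad3. The co-receptor Tgfbr3, also called betaglycan, presents ligand and is of most importance for Tgfb2, which binds Tgfbr2 poorly alone. In the embryonic heart the pathway is known for the transition of endocardial cells into cushion mesenchyme and for epicardial and coronary vessel development.

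The 3 ligands share a mature domain and differ in how latency can be released, which the coding sequence shows (GENCODE release M21, GRCm38, strand of the gene, 5′ to 3′). In each ligand a run of 4 codons for the furin-type cleavage site, in capitals, separates the propeptide from the mature ligand, which has 112 codons in all 3 genes. Tgfb1 lies on chromosome 7 from 25687002 to 25705077, Tgfb2 on chromosome 1 from 186622792 to 186705989 and Tgfb3 on chromosome 12 from 86056745 to 86079041.
Tgfb1 cleavage site: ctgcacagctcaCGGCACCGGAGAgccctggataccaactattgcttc
Tgfb2 cleavage site: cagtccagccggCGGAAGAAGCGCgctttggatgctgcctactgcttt
Tgfb3 cleavage site: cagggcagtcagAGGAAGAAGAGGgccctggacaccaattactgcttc
Over the 336 coding bases of the mature domain, Tgfb1 and Tgfb3 were identical at 247 bases, Tgfb2 and Tgfb3 at 238 and Tgfb1 and Tgfb2 at 231, so reads of the 3 genes can be told apart over most of this stretch. The codons for the integrin recognition site arginine-glycine-aspartate, in capitals, occurred once in frame in Tgfb1 and once in Tgfb3, and not in Tgfb2.
Tgfb1 integrin site: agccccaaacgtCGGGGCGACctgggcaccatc
Tgfb3 integrin site: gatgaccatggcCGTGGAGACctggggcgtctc

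Among the ligands, Tgfb2 was the most abundant, and Tgfb1 was the one whose mean differed most between genotypes, at 30.7% below control. None of the 6 genes passed the threshold for a difference between genotypes (limma, adjusted p under 0.05), which 0.177% of all tested genes did, 0.123% as lower and 0.0539% as higher. At an unadjusted p under 0.05, Tgfb1, Tgfbr2 and Tgfbr3 lay lower, 3 of the 6, and none lay higher. Of all tested genes 6.68% had such a p, 4.37% as lower and 2.31% as higher. Tgfbr2 and Tgfbr3 had conditional knockout libraries that all lay below every control library, 2 of the 6 genes. Of all tested genes 13.4% had groups without overlap, 8.17% lower and 5.23% higher.

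Tgfb1, the ligand of endothelial and blood cells in the embryo, had 10.6, 16.4 and 10.3 FPKM in the conditional knockout libraries, against 18.6, 19.2 and 16.0 FPKM in the control libraries. Conditional knockout replicates 1 and 3 stood apart below every control, while replicate 2 reached the range of the controls and lay above control replicate 3. The mean was 12.4 ± 3.45 FPKM in conditional knockout and 17.9 ± 1.69 FPKM in control hearts (SD, n = 3 each). The log2 fold change on the log2(FPKM + 1) scale, conditional knockout minus control, was -0.52 ± 0.18 (SE, 95% interval -0.94 to -0.10, limma adjusted p = 0.696). Without any 1 library it lay between -0.72, without conditional knockout replicate 2, and -0.41, without conditional knockout replicate 3 (limma adjusted p of 0.237 to 1). Set against the control of the same number, Tgfb1 was lower in all 3 pairs, with differences of -0.76, -0.21 and -0.59 on the log2(FPKM + 1) scale. Tgfbr2 and Tgfbr3 were also lower in all 3 pairs, and Tgfbr1 was higher in all 3. Tgfb2 and Tgfb3 were each lower in 2 pairs and higher in 1. The labels do not say what libraries of the same number share.

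Tgfb2, the ligand that myocardium, cushion and outflow tissue are known to make, had 30.4, 28.1 and 30.9 FPKM in conditional knockout libraries, against 22.5, 28.7 and 31.7 FPKM in controls. The conditional knockout libraries lay inside the control range, which was set by the low control replicate 1 and the high control replicate 3. Its mean was 29.8 ± 1.50 FPKM in conditional knockout and 27.6 ± 4.70 FPKM in control hearts (SD, n = 3 each), and the log2 fold change was 0.12 ± 0.14 (SE, 95% interval -0.20 to 0.44, limma adjusted p = 0.877). Without control replicate 1 the log2 fold change was -0.02, so the sign of the difference turned without that library.

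Tgfb3, which is expressed in cushion and outflow mesenchyme, was the least abundant of the 6 genes, with 7.50, 6.44 and 6.57 FPKM in conditional knockout libraries, against 5.13, 7.23 and 7.54 FPKM in controls. Control replicate 1 was again the lowest library, and the groups overlapped. The mean was 6.84 ± 0.579 FPKM in conditional knockout and 6.63 ± 1.31 FPKM in control hearts (SD, n = 3 each), and its log2 fold change was 0.05 ± 0.15 (SE, 95% interval -0.29 to 0.39, limma adjusted p = 0.964). It was -0.10 without control replicate 1 and -0.01 without conditional knockout replicate 1. Of its 3383 exonic bases, 420 are shared with genes annotated on the other strand, among them Ttll5. No source used here gives the strand setting of the counting, so its level is less certain. Tgfbr3 shares 297 of 6545 exonic bases with other annotated genes, and Tgfb2 shares 124 of 5791. Some of the genes that overlap Tgfbr3 lie on its own strand, so the same limit holds there over fewer bases.

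Tgfb2 and Tgfb3 kept a narrow range of ratios across the libraries, with 4.05, 4.36 and 4.70 times as much Tgfb2 as Tgfb3 on the FPKM scale in conditional knockout libraries and 4.38, 3.97 and 4.20 times in controls. The ratio of Tgfb2 to Tgfb1 moved more, at 2.87, 1.71 and 3.01 in conditional knockout libraries, against 1.21, 1.50 and 1.98 in controls. The groups overlapped in both ratios (exact two-sided permutation test, p = 0.5 for Tgfb2 over Tgfb3 and p = 0.2 for Tgfb2 over Tgfb1, where 3 libraries against 3 cannot go below 0.1). In the ratio to Tgfb1, conditional knockout replicate 2 lay below control replicate 3.

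**Figure D1:**
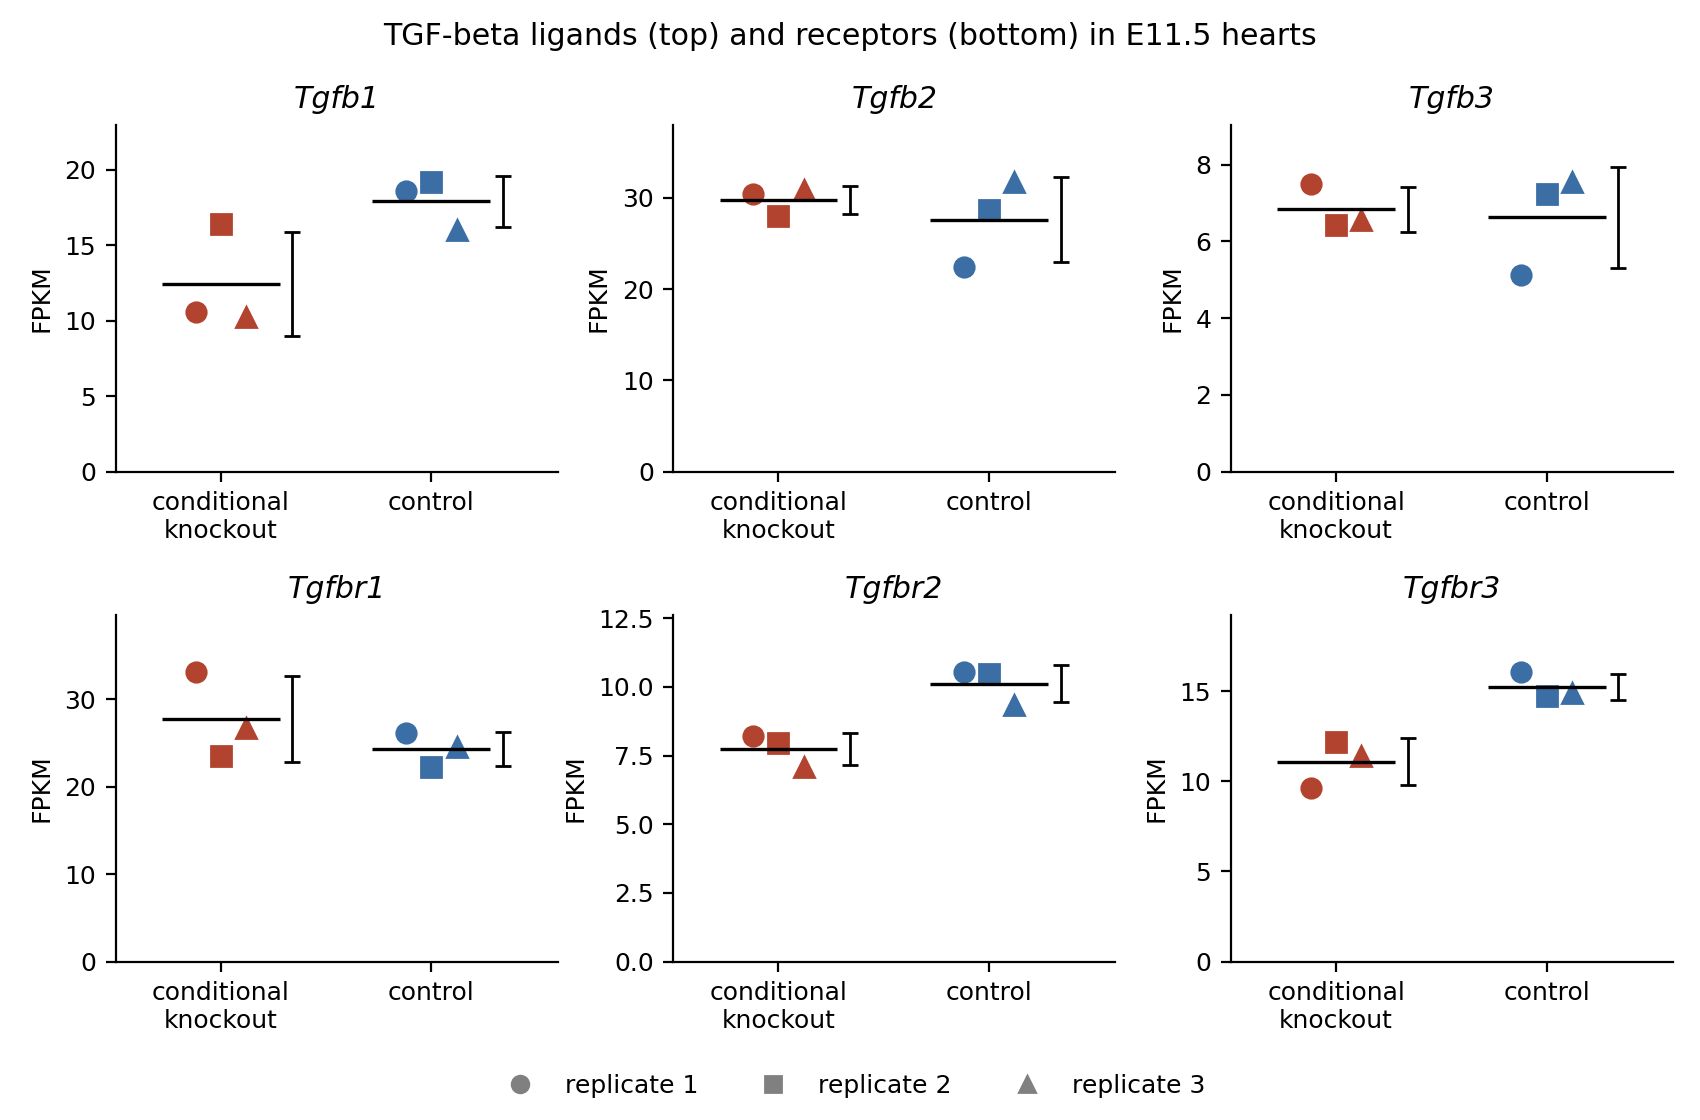
FPKM of each gene in each library, with conditional knockout in red and control in blue, symbols for the replicate number, a line at the group mean and a bar of 1 SD beside it. The groups do not overlap in Tgfbr2 and Tgfbr3, conditional knockout replicate 2 alone reaches the control range in Tgfb1, and control replicate 1 is lowest in Tgfb2 and Tgfb3.

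Among the receptors the signalling pair differed from each other in direction: Tgfbr1, the type I receptor, had a higher mean in conditional knockout than in control hearts, and Tgfbr2, the type II receptor, a lower one. Tgfbr1 lies on chromosome 4 from 47353222 to 47414931, Tgfbr2 on chromosome 9 from 116084293 to 116175360 and Tgfbr3 on chromosome 5 from 107106570 to 107289629 (GRCm38). All 6 genes are protein coding, and no exon of Tgfb1, Tgfbr1 or Tgfbr2 overlaps another annotated gene.

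Tgfbr1 had 33.1, 23.5 and 26.7 FPKM in conditional knockout libraries, against 26.2, 22.3 and 24.6 FPKM in controls. Conditional knockout replicate 1 was the highest library, and the other two lay within the control range or just above it. The mean was 27.8 ± 4.88 FPKM in conditional knockout and 24.3 ± 1.98 FPKM in control hearts (SD, n = 3 each). The log2 fold change was 0.17 ± 0.14 (SE, 95% interval -0.16 to 0.50, limma adjusted p = 0.82), and 0.04 without conditional knockout replicate 1.

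Tgfbr2 had 8.19, 7.95 and 7.09 FPKM in conditional knockout libraries, against 10.5, 10.5 and 9.35 FPKM in controls. Every conditional knockout library lay below every control. The mean was 7.75 ± 0.579 FPKM in conditional knockout and 10.1 ± 0.666 FPKM in control hearts (SD, n = 3 each), 23.4% lower. Its log2 fold change was -0.35 ± 0.10 (SE, 95% interval -0.58 to -0.12, limma unadjusted p = 0.00888 and adjusted p = 0.559), and it did not pass the threshold. The same-numbered libraries differed by -0.33, -0.36 and -0.35 on the log2(FPKM + 1) scale, the narrowest range of pairwise differences among the 6 genes.

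Tgfbr3, the co-receptor, had 9.63, 12.2 and 11.4 FPKM in conditional knockout libraries, against 16.0, 14.7 and 14.9 FPKM in controls. The groups did not overlap, and conditional knockout replicate 1 was the lowest library. The mean was 11.1 ± 1.31 FPKM in conditional knockout and 15.2 ± 0.711 FPKM in control hearts (SD, n = 3 each), 27.2% lower. The log2 fold change was -0.43 ± 0.11 (SE, 95% interval -0.68 to -0.18, limma unadjusted p = 0.00494 and adjusted p = 0.425). Of the 6 genes it had the lowest p, at rank 151 of the 12988 genes tested, with Tgfbr2 at rank 206 and Tgfb1 at rank 396.

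The shares of the receptors in their summed FPKM did not overlap between the genotypes. These shares add up to the whole in each library. They and the ratio of Tgfbr1 to Tgfbr2 come from the levels given above, so they are not separate results. The level of Tgfbr1 itself overlapped between the groups. Tgfbr1 made up 65.0%, 53.9% and 59.1% of the summed receptor FPKM in conditional knockout libraries, against 49.6%, 46.9% and 50.4% in controls. The groups did not overlap, with a mean of 59.3 ± 5.57% in conditional knockout and 49.0 ± 1.84% in control hearts (SD, n = 3 each, exact two-sided permutation test, p = 0.1, the smallest that 3 against 3 allows). Tgfbr2 made up 16.7 ± 1.37% in conditional knockout and 20.4 ± 1.51% in control hearts, and Tgfbr3 24.0 ± 4.62% in conditional knockout and 30.7 ± 0.345% in control hearts, again without overlap (SD, n = 3 each, exact permutation p = 0.1 for both).

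Set as a ratio, there was 4.04, 2.95 and 3.77 times as much Tgfbr1 as Tgfbr2 on the FPKM scale in conditional knockout libraries, against 2.49, 2.12 and 2.63 times in controls. All 3 conditional knockout libraries lay above every control in this ratio. The summed receptor level was 46.6 ± 3.83 FPKM in conditional knockout and 49.7 ± 2.74 FPKM in control hearts (SD, n = 3 each), and the groups overlapped.

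The ligand sum also overlapped between genotypes, at 49.0 ± 1.67 FPKM in conditional knockout and 52.2 ± 5.16 FPKM in control hearts (SD, n = 3 each). Tgfb1 made up 21.9%, 32.2% and 21.5% of it in conditional knockout libraries, against 40.3%, 34.8% and 29.0% in controls. The groups overlapped (exact two-sided permutation test without pairing, p = 0.2). The share was lower in the conditional knockout in each of the 3 same-numbered pairs, which were not tested. The labels do not say what libraries of the same number share, and the pairing of replicate 2 is uncertain. Tgfb2 made up 60.8 ± 5.04% in conditional knockout and 52.7 ± 4.41% in control hearts, and Tgfb3 14.0 ± 1.42% in conditional knockout and 12.6 ± 1.35% in control hearts (SD, n = 3 each, exact permutation p = 0.2 and 0.4).

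**Figure D2:**
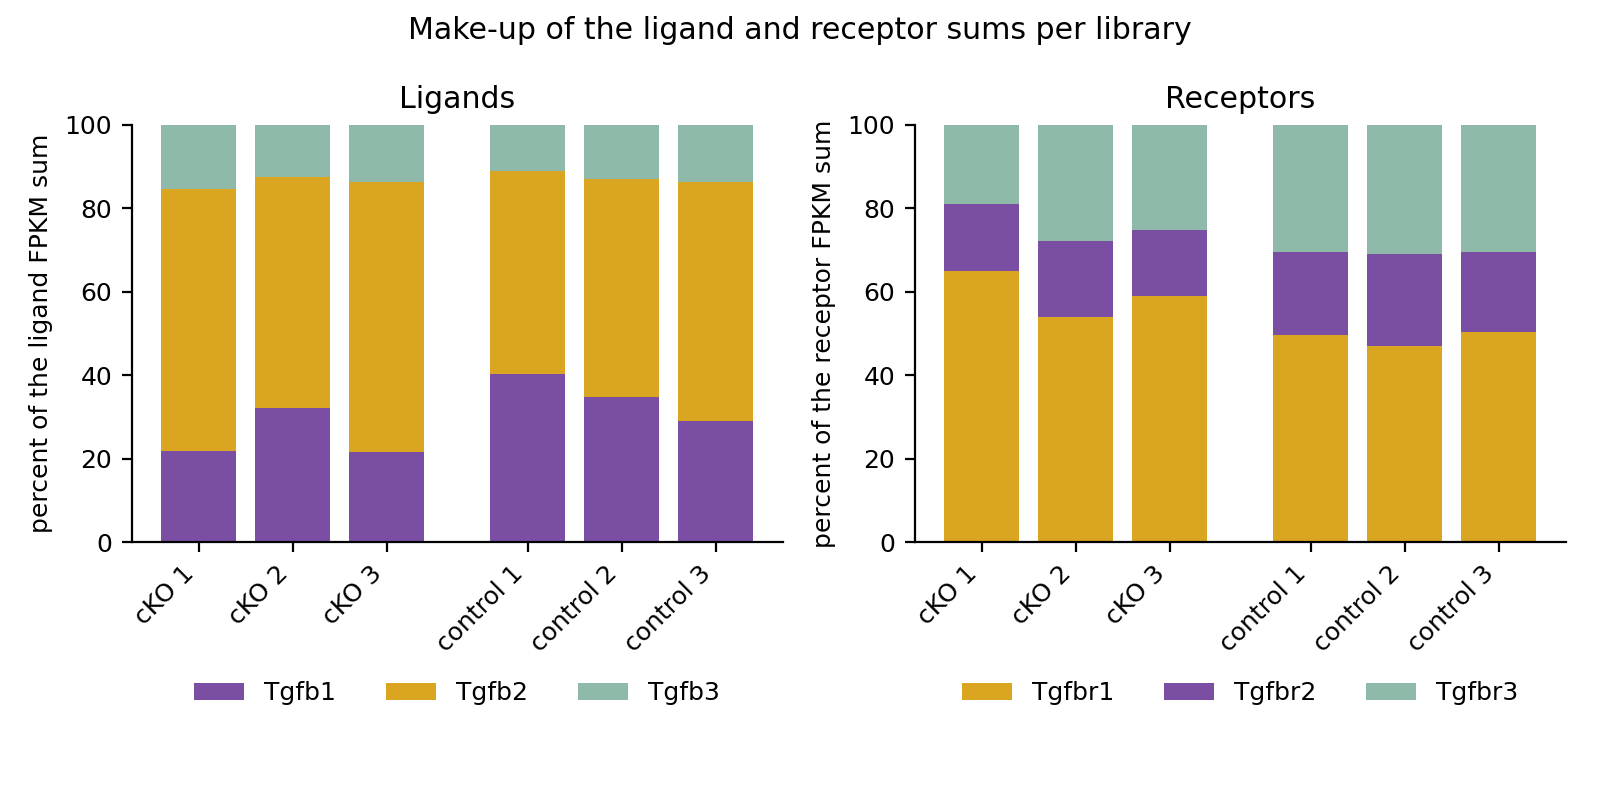
Percent of the summed ligand FPKM (left) and summed receptor FPKM (right) given by each gene, 1 bar per library, with cKO for conditional knockout. Tgfbr1 takes 53.9% to 65.0% of the receptor sum in conditional knockout libraries and 46.9% to 50.4% in controls, while the shares of the ligands overlap between the groups.

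The order of the mean levels was the same in both genotypes: Tgfb2, Tgfbr1, Tgfb1, Tgfbr3, Tgfbr2 and Tgfb3. Tgfb2 and Tgfbr1, the first neighbours, had overlapping ranges in both groups, as did Tgfb1 and Tgfbr3. Tgfbr1 and Tgfb1 were separated in both groups, and so were Tgfbr3 and Tgfbr2. Tgfbr2 and Tgfb3 had ranges that overlapped in conditional knockout hearts, at 7.09 to 8.19 and 6.44 to 7.50 FPKM, and did not in control hearts, at 9.35 to 10.5 and 5.13 to 7.54 FPKM. By mean level over all 6 libraries, the genes lay between the 36.5th percentile of tested genes for Tgfb3 and the 77.9th for Tgfb2.

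**Figure D3:**
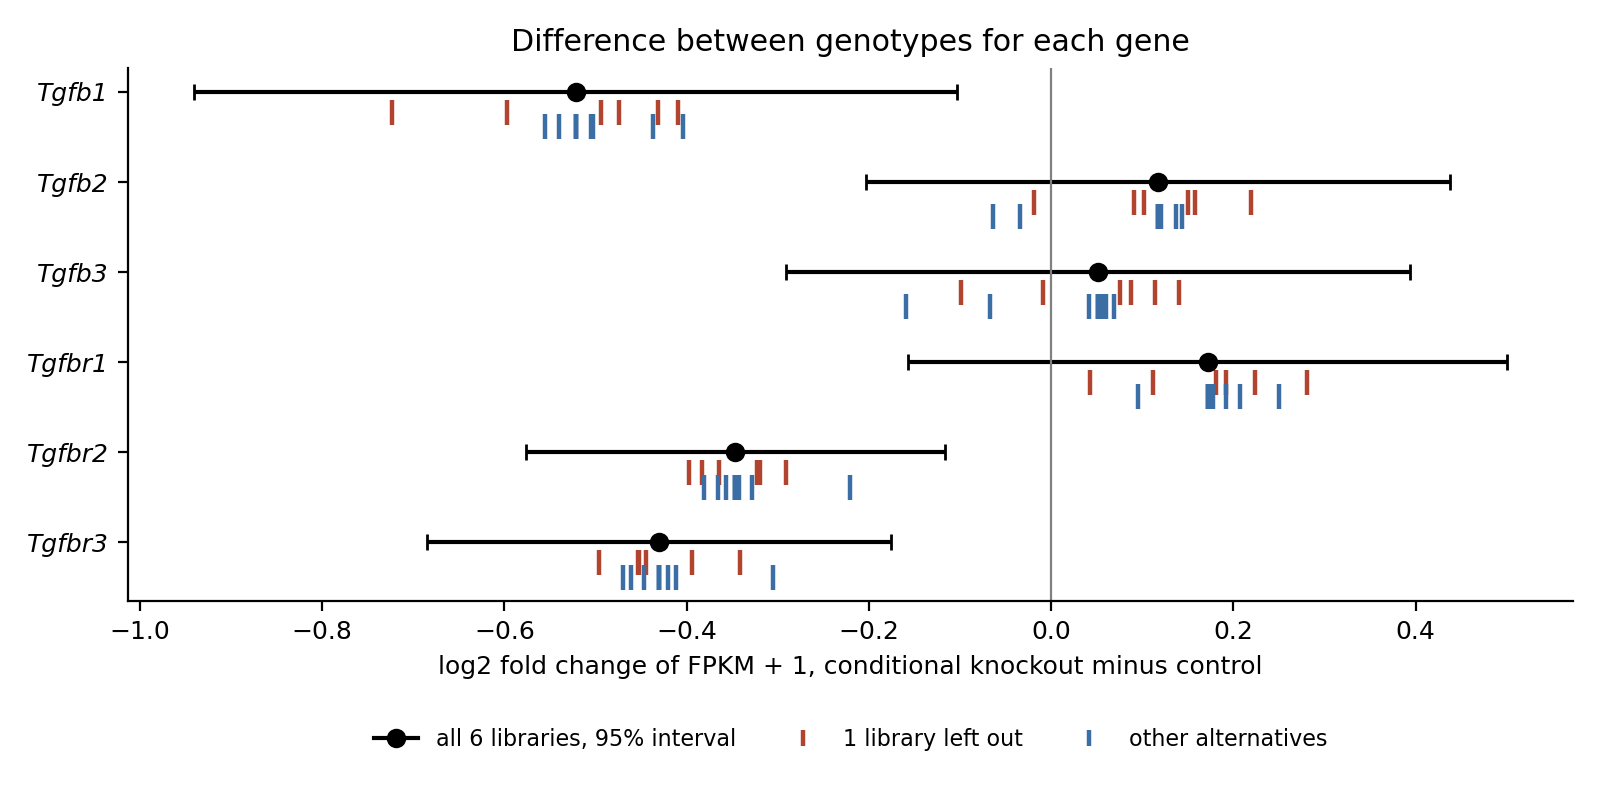
Log2 fold change of FPKM + 1, conditional knockout minus control, for each gene, with the 95% interval from limma (black) and the value with 1 library left out (red ticks) or under the other alternatives (blue ticks). The ticks of Tgfb1, Tgfbr2 and Tgfbr3 all lie below 0, those of Tgfbr1 all lie above 0, and those of Tgfb2 and Tgfb3 fall on both sides.

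The libraries were checked by the targeted gene and by marker genes. Tek had 3.38, 3.13 and 3.13 FPKM in conditional knockout libraries, against 22.4, 25.7 and 16.6 FPKM in controls (log2 fold change -2.40 ± 0.15, SE, limma adjusted p = 0.00131), and the FPKM values of all genes summed to between 481334 and 582261 per library. Markers of myocardium, endothelium, endocardium, epicardium, cushion mesenchyme and smooth muscle were all present. No deposited gene of the 10 marker lists was at 0 in every library. The erythroid marker Epb42 was not found by its symbol among the deposited genes. The summed level of 10 endothelial markers was 213 to 237 FPKM in conditional knockout and 266 to 297 FPKM in control libraries, and that of 8 endocardial markers 136 to 159 FPKM in conditional knockout and 230 to 286 FPKM in control libraries. These groups did not overlap, as for Tgfbr2 and Tgfbr3, and the part of the endothelial and endocardial genes in those results was not tested. The endocardial list holds Nfatc1 and genes known to be lower from earlier results of these data, so its lower sum is not a separate result. In RNA of whole hearts, fewer cells of a type and less RNA per cell cannot be told apart.

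Of the 8 endocardial markers, 5 passed the threshold as lower, against 0.123% of all tested genes, though this list holds genes known to be lower from earlier results of these data. None of the 10 endothelial markers passed over all genes (limma, 6 lower and 0 higher at an unadjusted p under 0.05), and 7 had groups that did not overlap, all lower. Over all tested genes these shares were 4.37% lower at an unadjusted p under 0.05 and 8.17% lower without overlap. Emcn and Cldn5 had log2 fold changes above 0, at 0.08 ± 0.13 and 0.43 ± 0.31 (SE), with overlapping groups. Smooth muscle markers, 5 genes, summed to 810 to 1063 FPKM in conditional knockout and 984 to 1487 FPKM in control libraries, and 8 cushion mesenchyme markers to 339 to 470 FPKM in conditional knockout and 302 to 440 FPKM in control libraries. The cushion sum was lowest in control replicate 1, at 302 FPKM, the library in which Tgfb2 and Tgfb3 were also lowest. The next lowest was 339 FPKM in conditional knockout replicate 1, which had 30.4 FPKM of Tgfb2 and the highest Tgfb3 of its group. Control replicate 1 also had the lowest macrophage and Y-linked sums and the highest endocardial and smooth muscle sums. The part of the cushion genes in the Tgfb2 and Tgfb3 values was not tested.

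The sums of 8 epicardial markers, 168 to 180 FPKM in conditional knockout and 164 to 181 FPKM in control libraries, and of 8 cardiomyocyte markers, 5755 to 9378 FPKM in conditional knockout and 7797 to 9260 FPKM in control libraries, overlapped. Macrophage markers, 7 genes, were low but higher in the conditional knockout, at 13.7 to 17.4 FPKM, against 10.2 to 12.5 FPKM in controls, and their part in the Tgfb1 values was not tested. The 7 liver markers, from tissue that can adhere to a dissected heart, ranged from 2.69 to 248 FPKM in conditional knockout and from 22.9 to 90.9 FPKM in control libraries. Conditional knockout replicate 2, with the 248 FPKM, was also the conditional knockout library highest in Tgfb1. Among conditional knockout libraries it was also highest in the endothelial, endocardial, cardiomyocyte, smooth muscle, cushion mesenchyme, macrophage and erythroid sums. It was lowest in the epicardial sum and not the highest in the Y-linked sum. None of these links was tested. The 5 erythroid markers with values in both groups summed to 4121 to 7449 FPKM in conditional knockout and 4420 to 8019 FPKM in control libraries, while the embryonic globin genes Hbb-y and Hba-x had 17557 to 23965 FPKM and 11129 to 18709 FPKM in conditional knockout libraries and were listed at 0 in all 3 controls. With both, the erythroid sum was 32806 to 50122 FPKM in conditional knockout libraries and 4420 to 8019 FPKM in controls, on a scale relative to the library total, and under median-of-ratios scaling the log2 fold changes of Tgfb1, Tgfbr2 and Tgfbr3 were -0.50, -0.33 and -0.41. The 4 Y-linked genes summed to 54.9 to 82.1 FPKM in conditional knockout and 29.6 to 65.0 FPKM in control libraries. With their level as a covariate the log2 fold change of Tgfbr2 was -0.22, against -0.35 without it (limma adjusted p = 0.9999 and 0.559). That of Tgfb1 was -0.44 with the covariate and -0.52 without it, and that of Tgfbr3 was -0.47 with it and -0.43 without it.

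The other genes of the pathway were read from 4 lists, with 59 different genes in all, of which 53 were tested. None of the 53 passed the threshold (limma). At an unadjusted p under 0.05, 5 were lower and 0 higher, 9.43% of the 53. Over all tested genes that share was 6.68%, with 4.37% as lower and 2.31% as higher. The groups did not overlap in 7 lower genes and 1 higher gene. That is 15.1% of the 53, against 13.4% of all tested genes, 8.17% lower and 5.23% higher. Their median log2 fold change was -0.0011, against -0.01 over all tested genes.

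Of 15 genes for latency and activation, 13 were tested, and none passed (limma, 2 lower and 0 higher at an unadjusted p under 0.05, median log2 fold change -0.06). The median turned to 0.012 without control replicate 2 and to 0.0057 without control replicate 3. Ltbp1, a latent TGF-beta binding protein and the most abundant, had 39.4 ± 2.42 FPKM in conditional knockout and 41.3 ± 6.28 FPKM in control hearts (SD, n = 3 each). Fbn1, the microfibril protein fibrillin 1 that anchors latent complexes, had 20.2, 19.0 and 19.2 FPKM in conditional knockout libraries, against 21.5, 31.9 and 28.6 FPKM in controls. Its groups did not overlap, although control replicate 1 came close to the conditional knockout libraries (log2 fold change -0.45 ± 0.15, SE, limma adjusted p = 0.669). Furin, the protease for the cleavage site shown above and named after its values were seen, was the other gene without overlap, at 26.4 ± 2.02 FPKM in conditional knockout and 32.7 ± 2.83 FPKM in control hearts (SD, n = 3 each, limma adjusted p = 0.728).

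Integrins that release Tgfb1 and Tgfb3 through the arginine-glycine-aspartate site were present at different levels. Itgb8, the beta 8 integrin subunit, had the highest log2 fold change of the list at 0.12 ± 0.17 (SE, limma adjusted p = 0.902), with 2.70 ± 0.673 FPKM in conditional knockout and 2.39 ± 0.352 FPKM in control hearts (SD, n = 3 each). Its partner Itgav had 12.8 ± 2.30 FPKM in conditional knockout and 13.7 ± 0.663 FPKM in control hearts, and Itgb6, the beta 6 subunit, was at most 0.11 FPKM in any library and was not tested.

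Of the 15 Smads and intracellular regulators, all tested, none passed (limma, 1 lower and 0 higher at an unadjusted p under 0.05, median 0.01). The median turned to -0.018 without control replicate 1 and to -0.073 in replicates 2 and 3 only. Smad2, the most abundant gene of the list and one of the Smads that Tgfbr1 phosphorylates, had 33.1 ± 5.73 FPKM in conditional knockout and 30.1 ± 3.39 FPKM in control hearts (SD, n = 3 each). Smad4, the partner shared by all receptor-activated Smads, had 27.2, 32.2 and 25.7 FPKM in conditional knockout libraries, against 33.2, 35.1 and 34.3 FPKM in controls. All conditional knockout libraries lay below every control for Smad4 (log2 fold change -0.27 ± 0.11, SE, limma adjusted p = 0.742). Skil, which encodes SnoN, a repressor of Smad activity and itself a response gene, was the one gene of the list with every conditional knockout library above every control, at 12.1 ± 1.63 FPKM in conditional knockout and 10.04 ± 0.37 FPKM in control hearts (SD, n = 3 each, limma adjusted p = 0.772).

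Among 13 other receptors and co-receptors of the superfamily, 10 were tested and none passed (limma, 1 lower and 0 higher at an unadjusted p under 0.05, median 0.04, but -0.04 without conditional knockout replicate 1, -0.02 in replicates 2 and 3 only and -0.01 with no filter on low values). Eng, or endoglin, the endothelial co-receptor related to Tgfbr3 and the most abundant of the list, had 40.6, 54.6 and 48.4 FPKM in conditional knockout libraries, against 60.97, 81.6 and 70.3 FPKM in controls. Each conditional knockout library lay below all controls (log2 fold change -0.56 ± 0.15, SE, limma adjusted p = 0.533), so both co-receptors had lower means in the conditional knockout. Bmpr1b, a BMP type I receptor, had the highest log2 fold change at 0.30 ± 0.20 (SE, limma adjusted p = 0.808), and the value was 0.16 without conditional knockout replicate 1 and 0.47 without conditional knockout replicate 2. Its levels were 1.43 ± 0.514 FPKM in conditional knockout and 0.946 ± 0.176 FPKM in control hearts (SD, n = 3 each). The control mean lay below the minimum mean of 1 FPKM for testing, which Bmpr1b passed only through its conditional knockout level.

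The response list of 20 genes, which TGF-beta is known to induce or repress in various cells, had 19 tested and none past the threshold (limma, 1 lower and 0 higher at an unadjusted p under 0.05, median 0.05). The median turned to -0.07 without control replicate 1, to -0.03 without conditional knockout replicate 3, to -0.05 in replicates 2 and 3 only and to -0.07 with the Y-linked covariate. Fn1, the fibronectin gene, had 148, 178 and 154 FPKM in conditional knockout libraries, against 193, 266 and 231 FPKM in controls, without overlap (log2 fold change -0.51 ± 0.15, SE, limma adjusted p = 0.559). Acta2, the smooth muscle actin gene and the most abundant, had 673 ± 108 FPKM in conditional knockout and 852 ± 227 FPKM in control hearts (SD, n = 3 each), and its highest library was control replicate 1. Tagln and Junb, named after their values were seen, were the other lower genes without overlap. Smad7, the inhibitory Smad that TGF-beta induces, overlapped at 12.4 ± 1.55 FPKM in conditional knockout and 11.5 ± 0.432 FPKM in control hearts (SD, n = 3 each).

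**Figure D4:**
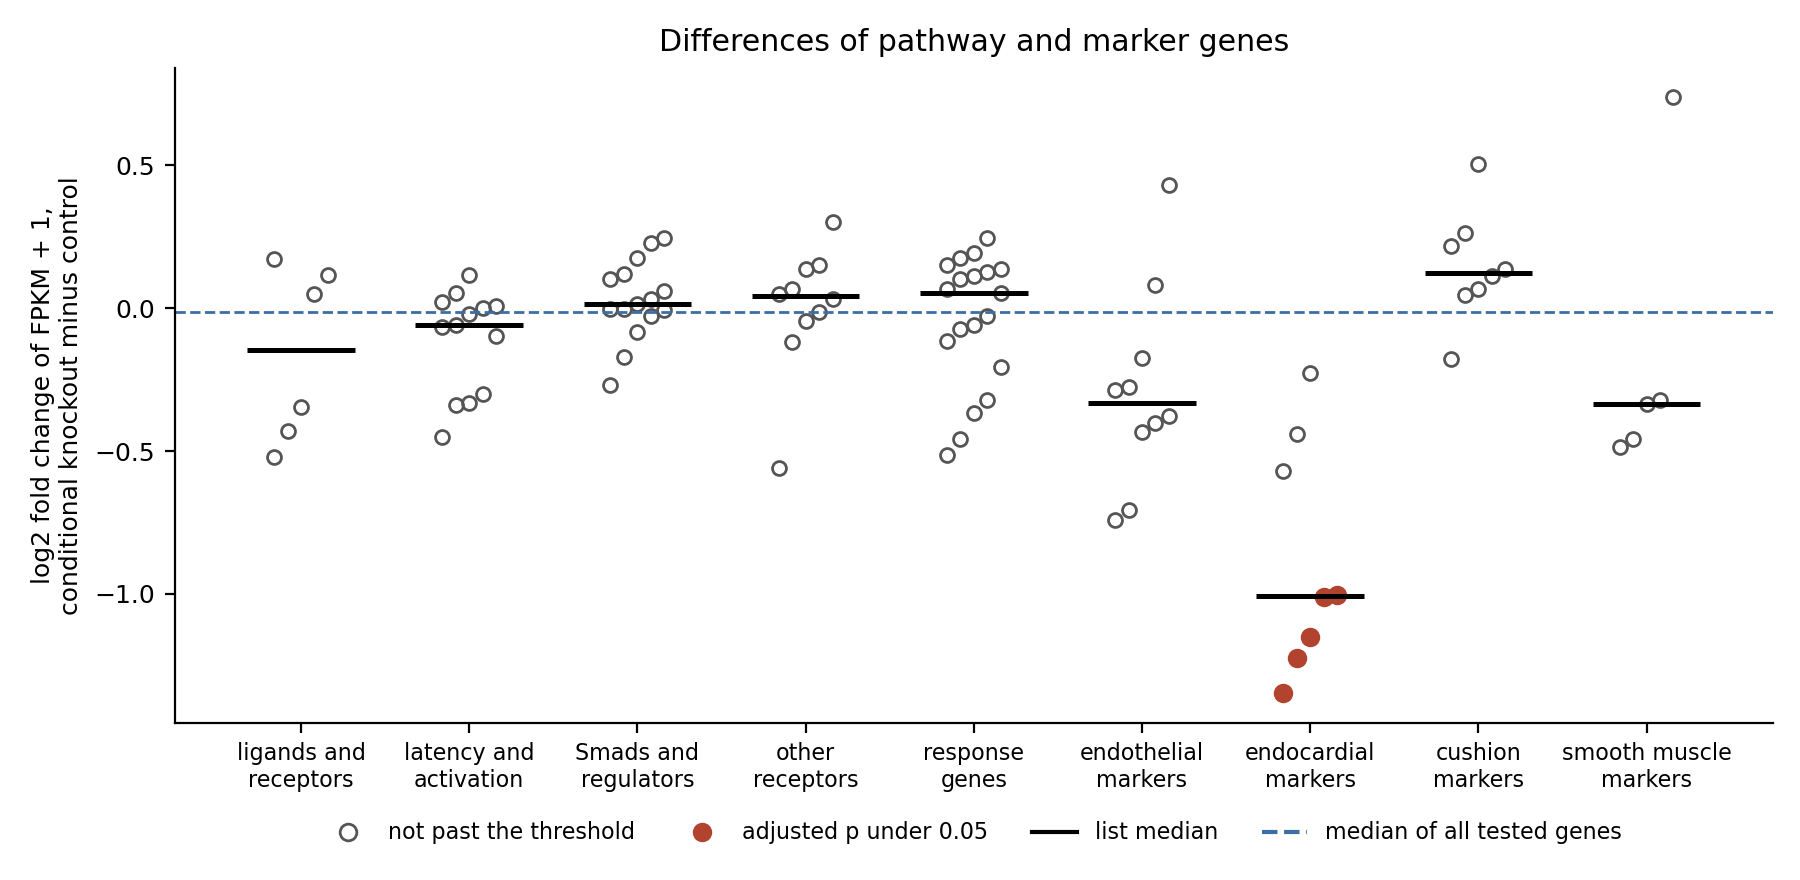
Log2 fold change of FPKM + 1, conditional knockout minus control, for each tested gene of the ligands and receptors, 4 pathway lists and 4 of the marker lists, with the list median in black and the median of all tested genes as a dashed line at -0.01. Filled points mark the 5 endocardial markers past the threshold, and no pathway gene is filled.

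Promoter sequence is shown for Tgfb1 and Tgfbr2, which had lower means in the conditional knockout, as the 250 bases before the annotated start (RefSeq, GRCm38.p6, 5′ to 3′ on the strand of the gene). RefSeq promoters were matched for 4 of the 6 genes, Tgfb1, Tgfb2, Tgfbr1 and Tgfbr2. Capitals mark matches, on either strand, to GGGCGG, the Sp1 core, or CAGAC, the Smad core, and CGGAAG and TGANTCA, the ETS and AP-1 cores, were searched as well. None of these motifs overlapped another here.
Tgfb1 promoter, chr7:25686752-25687001, plus strand: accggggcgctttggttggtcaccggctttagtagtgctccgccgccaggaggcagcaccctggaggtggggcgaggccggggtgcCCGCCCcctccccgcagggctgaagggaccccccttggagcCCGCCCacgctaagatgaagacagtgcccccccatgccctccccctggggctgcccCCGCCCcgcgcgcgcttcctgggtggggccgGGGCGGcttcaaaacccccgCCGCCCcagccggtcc
Tgfbr2 promoter, chr9:116175364-116175613, minus strand: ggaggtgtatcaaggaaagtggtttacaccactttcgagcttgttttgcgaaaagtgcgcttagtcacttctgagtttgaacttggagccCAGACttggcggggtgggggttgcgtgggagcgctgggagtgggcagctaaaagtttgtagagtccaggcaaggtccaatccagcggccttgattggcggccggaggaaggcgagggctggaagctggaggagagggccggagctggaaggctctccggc
Tgfb1 held 5 matches to GGGCGG, a motif found in 32.7% of 32851 promoters of the same length, and Tgfbr2 held 1 match to CAGAC, found in 42.2%. The Tgfb1 stretch was 75.2% G and C. Genes without lower means held the same motifs: Tgfbr1 had 2 matches to GGGCGG before its first annotated start and 1 to CAGAC before its second, and Tgfb2 had 2 to CAGAC. Neither held CGGAAG or TGANTCA, which 13.6% and 6.75% of these promoters hold.

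For each gene the most similar other genes were sought among 8737 named genes of at least 5 FPKM, as the smallest maximal difference between profiles of log2(FPKM + 1) centred on their own mean over the 6 libraries. This is a description over 6 libraries, with no test. The profile of Tgfbr3 was followed most closely by Afap1l1, with a largest difference of 0.05 on the log2 scale, and by Tgm2, the transglutaminase 2 gene, with 0.06. Afap1l1 had 31.2 ± 4.24 FPKM in conditional knockout and 40.96 ± 1.33 FPKM in control hearts, and Tgm2 had 65.5 ± 7.82 FPKM in conditional knockout and 90.7 ± 3.53 FPKM in control hearts (SD, n = 3 each).

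Hist1h1c, a linker histone gene, and Gdpd5 followed Tgfbr2 with a largest difference of 0.05 each, and so did the thrombomodulin gene Thbd and Uhrf2 for Tgfbr1. Tgfb2 was matched by Armcx4 and Zfp697 at 0.04 each, and Tgfb3 by Dlg5 at 0.04 and Mecom at 0.06. Each had its lowest value in control replicate 1, which follows from the way these genes were chosen. Tgfb1 had the loosest matches, Bst2 at 0.07 and the apolipoprotein E gene Apoe at 0.14. Its own profile spanned the widest range of the 6 genes, 0.84 on the log2 scale, against 0.48 for Tgfb2 and Tgfb3.

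**Figure D5:**
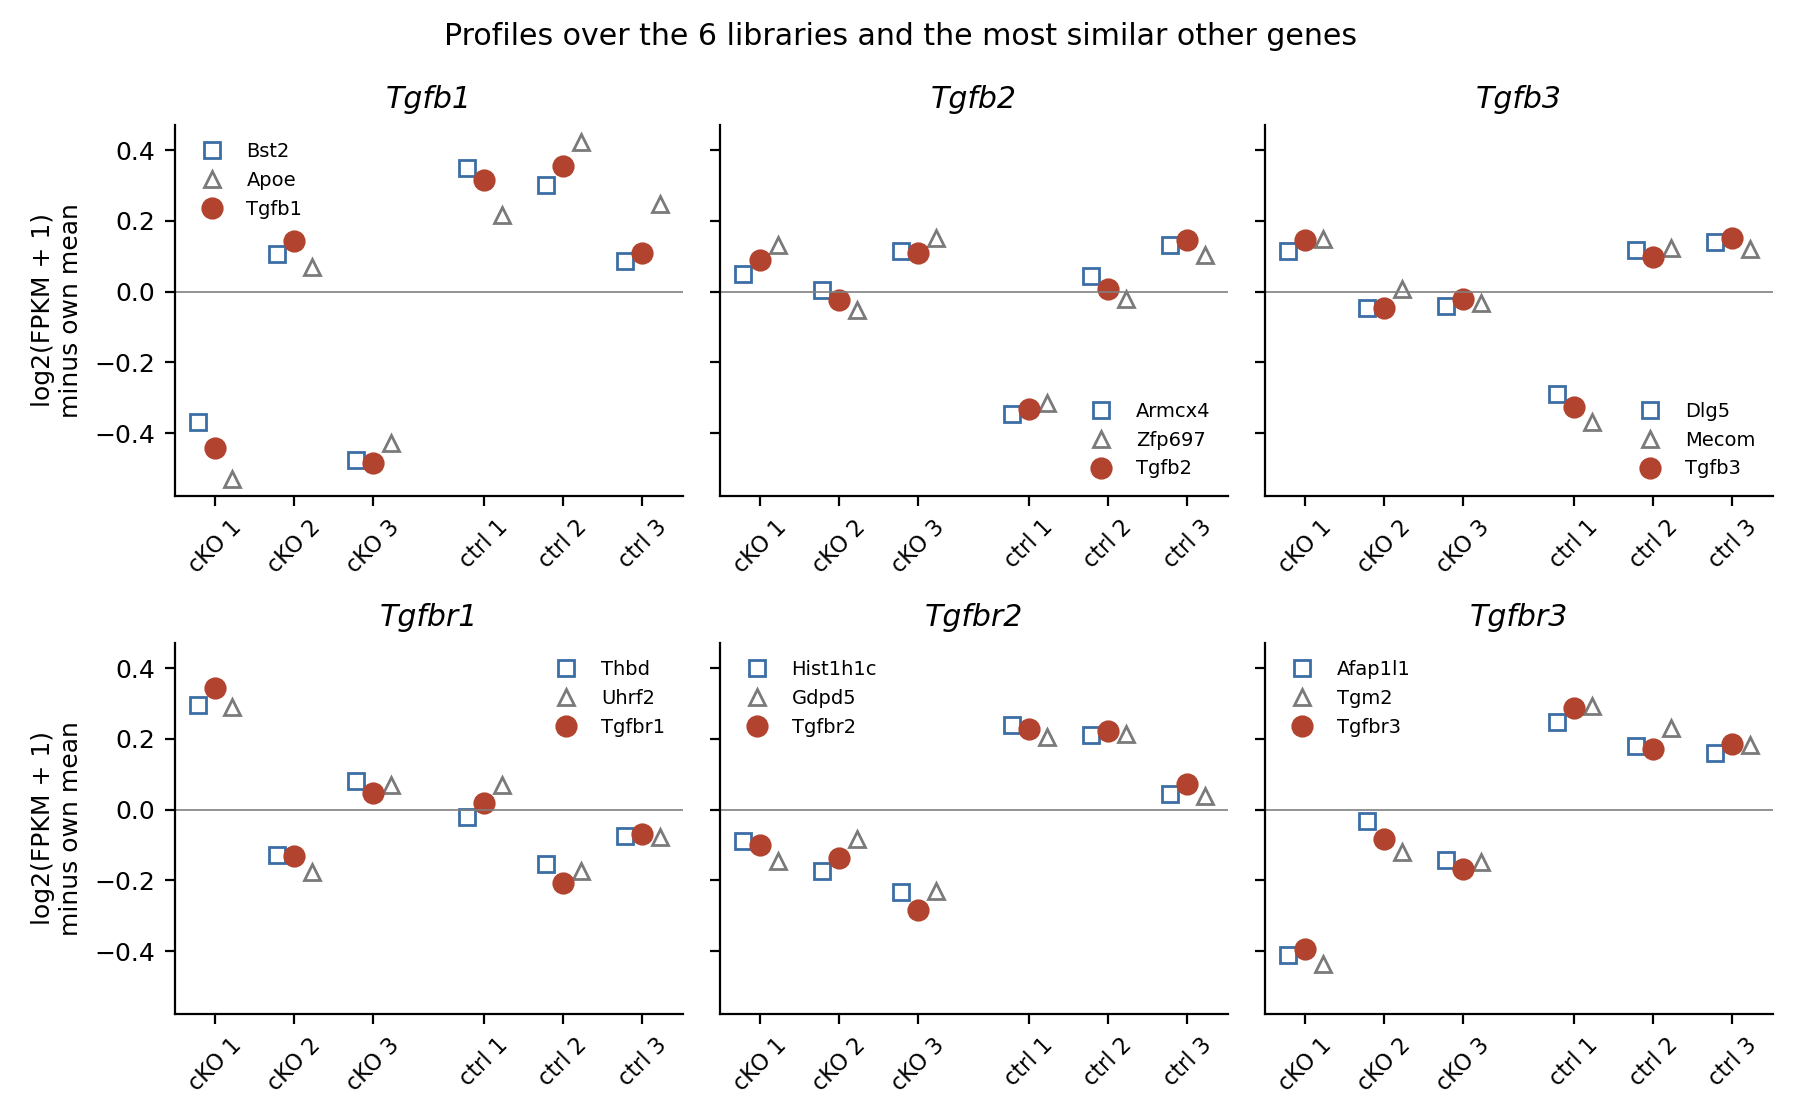
log2(FPKM + 1) minus the gene's own mean over the 6 libraries, for each ligand and receptor (filled red circles) and the 2 most similar other genes (open symbols), with cKO for conditional knockout and ctrl for control. All conditional knockout values of Tgfbr2 and Tgfbr3 lie below their controls, and Tgfb1 in conditional knockout replicate 2 lies among its controls.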

How the data were processed

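The authors deposited FPKM values of 38918 genes, named by Ensembl identifier and symbol. Per the submitters' processing notes, TopHat2 2.0.9, Cufflinks 2.2.1, Cuffdiff and HTSeq were used with the build mm10, with no role or order stated. Per the labels' protocols, Trizol extraction was followed by an Illumina TruSeq RNA kit. No source used here gives the annotation release or the strand setting. The table gives no counts and the absolute depth is unknown, so no counting error is given. Because FPKM is relative to the library total, very abundant transcripts shift the values of the rest.

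Values were analysed as log2(FPKM + 1), keeping genes whose mean reached 1 FPKM, with limma 3.58.1 in R 4.3.3 (intensity trend, Benjamini-Hochberg adjustment over all 12988 genes, threshold 0.05), after a test on simulated data. The pseudocount understates fold changes of low genes. Residual degrees of freedom were 4. Errors are SD for FPKM and moderated SE for log2 fold changes. Shares and ratios of FPKM were tested by exact permutation over libraries (scipy 1.17.1). Positions come from GENCODE M21 on GRCm38, the assembly behind mm10.

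The genes, the lists and the tests were chosen with earlier results of these data known. Besides the 6 genes, Tek and Nfatc1, the text names in each pathway list the gene with the highest mean and those with the lowest and highest log2 fold change, and the 2 genes most similar to each ligand or receptor. Other genes were chosen after their values were seen or to show a role in the pathway. Nfatc1 had 10.8 ± 0.959 FPKM in conditional knockout and 15.1 ± 0.923 FPKM in control hearts (SD, n = 3 each, limma adjusted p = 0.333).

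Both groups carry replicate numbers 1 to 3. After subtraction of the group means, libraries with the same number correlated at 0.27, 0.11 and 0.44 across the 12805 tested genes that no library listed at 0, and at 0.19, 0.03 and 0.23 over all tested genes, so the numbers were used as a block in an alternative, with the pairing of replicate 2 uncertain. Among genes under 0.3 FPKM in every library, ratios between replicates 2 and 3 of both groups piled up at 1 value for 6.07% to 10.4% of genes, and between a replicate 1 library and one of these for 1.08% to 1.33%, so replicates 2 and 3 were also analysed alone. The other alternatives were pseudocounts of 0.1 and 0.5, no filter, a minimum of 5 FPKM, quantile and median-of-ratios scaling, the level of the 4 Y-linked genes as a covariate, and leaving out each library.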

Additional observations from a re-analysis of the deposited data

How the results depend on the processing

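None of the 6 genes passed the threshold in any of 90 alternative fits, with adjusted p values of 0.237 to 1, and the direction held in 83. Tgfb1, Tgfbr1, Tgfbr2 and Tgfbr3 kept theirs throughout. The log2 fold change of Tgfb2 turned to -0.019 without control replicate 1, -0.034 in replicates 2 and 3 only and -0.064 with the Y-linked covariate, and was 0.22 at most without 1 library. That of Tgfb3 turned to -0.10 without control replicate 1, -0.01 without conditional knockout replicate 1, -0.16 in replicates 2 and 3 only and -0.067 with the Y-linked covariate, and was 0.14 at most without 1 library. In replicates 2 and 3 only, the difference in the Tgfb3 share of the ligand sum was -0.17 percentage points, against 1.35 over all libraries. The cause of these turns was not tested. With the replicate block no call among the 6 genes changed, with adjusted p values of 0.316 for Tgfb1, 0.289 for Tgfbr2 and 0.338 for Tgfbr3, and 11 genes in all were lower and 6 higher.

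Over all genes, 16 were lower and 7 higher. The lower count was 7 with no filter, 8 in replicates 2 and 3 only, 1 with the Y-linked covariate and 4 to 9 without 1 library, and the higher count 6 to 11 without 1 library, with 11 without conditional knockout replicate 2. No pathway list held a called gene under any alternative. Ltbp1 turned to 0.015 without control replicate 3 (range without 1 library -0.19 to 0.015), Itgb8 to -0.018 without conditional knockout replicate 3 (-0.018 to 0.24) and -0.041 with the Y-linked covariate, and Smad2 to -0.032 with that covariate. Tek missed the threshold in replicates 2 and 3 only (adjusted p = 0.0546). The table gives no counts, so what depth limits cannot be stated.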
